A study of Solanum lycopersicum with 4 samples.

Results

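The comparison of breaker with mature green tomato fruit, taken over all degradome tags of a cDNA, covered 1377 of the 5373 cDNAs in the deposited tables. A cDNA belonged to it when it was listed in both libraries and its total reached at least 50 tags per 10000000 tags (TP10M) in either. The fruits were whole fruits of Solanum lycopersicum, variety Ailsa Craig, from plants raised on rockwool in a greenhouse. Breaker is the stage at which the first colour shows on a full-grown green fruit, and mature green is the last stage before it, so the comparison addresses the onset of ripening. There was 1 library per stage, and libraries from 5 days after pollination and 7 days after breaker give the same cDNAs before and after. The labels do not say how many fruits or plants went into a library.

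Tomato is a climacteric fruit: at breaker it makes a burst of ethylene, and ethylene then drives ripening. Ethylene is made from methionine by way of S-adenosylmethionine and 1-aminocyclopropane-1-carboxylate (ACC), and it is sensed by receptors whose signal ends at transcription factors of the EIN3 and ERF families. During ripening the fruit loses chlorophyll, gains carotenoids, softens its cell walls and shifts its sugars and acids. PARE (parallel analysis of RNA ends) does not count intact mRNAs. It captures the 5′ ends of polyadenylated RNAs that have lost their cap, so a total is the number of tags from cut or decaying copies of an mRNA. A larger total can come from more mRNA or from faster decay, and these cannot be told apart here. In whole fruit, fewer cells of a type and less RNA per cell cannot be told apart either.

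The tables list a cDNA only where a tag fell opposite a predicted small RNA site, and this limited which cDNAs could be compared. The breaker library listed 1879 cDNAs and the mature green library 3379, and 1440 were listed in both. Of these, 63 stayed under 50 TP10M in both libraries and were left out. Just outside that limit lay a growth-regulating factor, Solyc07g041640, with 3 TP10M at breaker and 48 TP10M at mature green. Just inside it lay a PHD finger protein, Solyc03g121930, with 50 TP10M at breaker and 27 TP10M at mature green. Gene identifiers are those of the ITAG2.3 annotation without the version suffix, and descriptions are those in the tables.

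Most members had similar totals in both libraries once a common shift was taken out. The median total was 302 TP10M at breaker and 401 TP10M at mature green, and the median log2 ratio of breaker over mature green was -0.50 on the log2(TP10M + 1) scale. Ratios were centred on that median, which by construction puts as many members above 0 as below. After centring, 665 members (48.3%) lay within 1.5-fold of the median, and the lower and upper quartiles were -0.58 and 0.66. A member was called higher or lower at a 2-fold difference, with no replicate and so no p-value. The lists of genes below were made by words in the descriptions, and the smaller families within them were chosen after their values had been seen. By that rule 224 members (16.3%) were higher at breaker, 197 (14.3%) were lower and 956 lay between. As deposited, without centring, the counts were 121 higher and 389 lower. Over all 1440 cDNAs listed in both libraries the called shares were 16.0% higher and 14.9% lower. The counts of each list below are to be read against the shares over all members, 16.3% higher and 14.3% lower. At 8-fold or more, 30 members were higher and 22 lower. At 16-fold or more, 12 were higher and 6 lower.

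**Figure D1:**
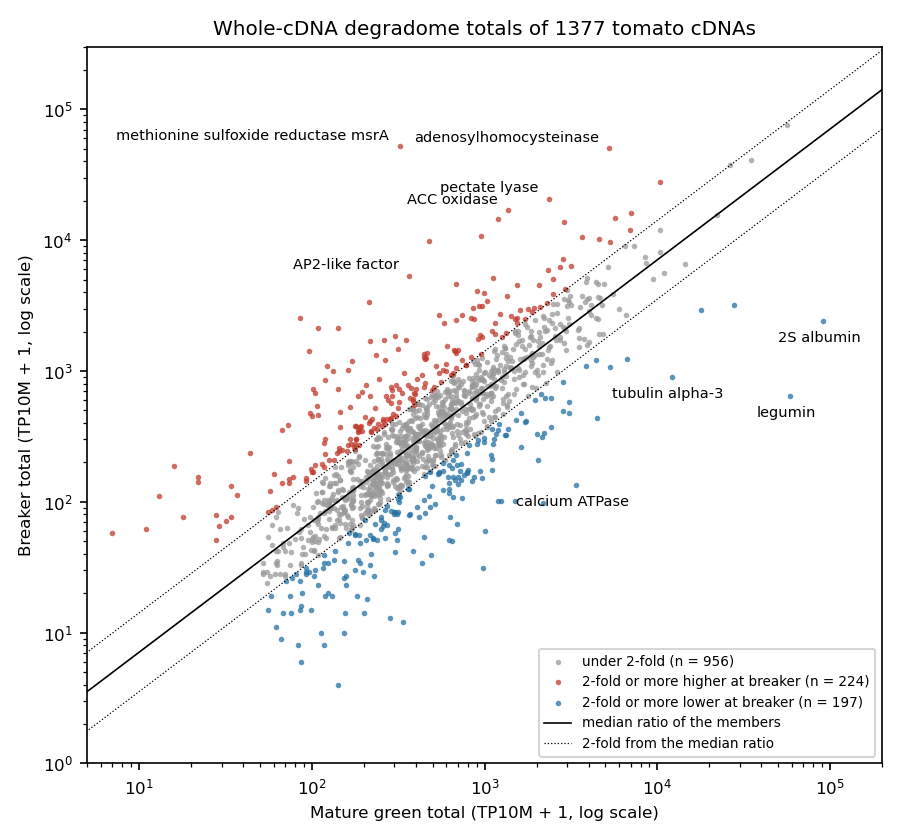
Whole-cDNA totals of the 1377 members at breaker (vertical, TP10M + 1) against mature green (horizontal, TP10M + 1), both on log scales, with 224 members higher at breaker in red, 197 lower in blue and 956 between in grey. The solid line is the median ratio, at -0.50 log2, and the dotted lines lie 2-fold from it. The methionine sulfoxide reductase msrA stands farthest above the line and legumin farthest below.

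The called shares differed with the level of a cDNA. Among the 154 members whose geometric mean total was under 100 TP10M, 13.0% were higher and 37.7% lower, with a median of -0.62. Among the 70 members at 3000 TP10M or more, 31.4% were higher and 7.14% lower, with a median of 0.66. Whether the listing rule, by which 1939 cDNAs were listed at mature green and not at breaker, shaped the trend was not tested. Totals were not divided by cDNA length, so they are compared between stages and not between genes. The 10 largest totals made up 26.0% of the members' summed tags at breaker and 24.9% at mature green.

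**Figure D2:**
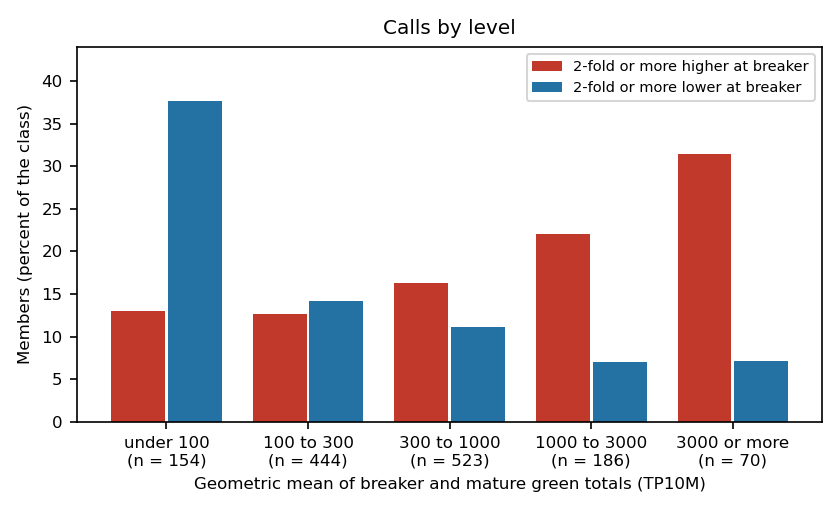
Percent of members called 2-fold or more higher (red) or lower (blue) at breaker in 5 classes of the geometric mean of both totals (TP10M). The share lower is 37.7% in the class under 100 TP10M and 7.14% in the class of 3000 TP10M or more, while the share higher is 13.0% and 31.4%.

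The genes of methionine metabolism included the highest ratios of the whole comparison, those of 2 methionine sulfoxide reductases. The peptide methionine sulfoxide reductase msrA (Solyc03g111720), which repairs oxidised methionine in proteins, totalled 52424 TP10M at breaker, against 321 TP10M at mature green, a centred log2 ratio of 7.85. Its partner msrB (Solyc01g080410), which repairs the other stereoisomer, had 2526 TP10M at breaker and 84 TP10M at mature green (5.39). Both were low or not listed in young fruit and stayed high after breaker: msrA was not listed at 5 days after pollination and had 23458 TP10M at 7 days after breaker, and msrB had 20 and 4577 TP10M at those stages. All 3 adenosylhomocysteinases, which recycle the by-product of methylation back toward methionine, were higher. Solyc09g092380 had 50419 TP10M at breaker and 5262 TP10M at mature green (3.76). Solyc09g092390 had 13872 TP10M at breaker and 2882 TP10M at mature green (2.77), and it shared identical values at a listed site with Solyc09g092380, so tags of these neighbouring copies may not be separable. The third, Solyc12g098500, had 1564 TP10M at breaker and 605 TP10M at mature green (1.87). A further enzyme of the cycle and a supplier of one-carbon units, named after their values had been seen, were also higher. Homocysteine S-methyltransferase (Solyc09g082460), which makes methionine, had 758 TP10M at breaker and 286 TP10M at mature green (1.90). Serine hydroxymethyltransferase (Solyc01g104000), which supplies one-carbon units, had 377 TP10M at breaker and 192 TP10M at mature green (1.47).

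Over the methionine and amino acid list, 9 of 22 members were higher and 3 lower, with a median of 0.47. As deposited, 8 were higher and 5 lower, with a median of -0.03. Tyrosine aminotransferase (Solyc10g007110), which starts the breakdown of tyrosine and feeds tocopherol synthesis, had 2142 TP10M at breaker and 107 TP10M at mature green (4.81). It had the same 107 TP10M at 5 days after pollination and 2175 TP10M at 7 days after breaker, so both earlier libraries were low and both later ones high. Glutamate decarboxylase (Solyc05g054050), which makes the amino acid GABA, went the other way with 15 TP10M at breaker and 85 TP10M at mature green (-1.93). Prephenate dehydratase (Solyc11g066890), a step of phenylalanine synthesis whose description no list's words matched, had 1426 TP10M at breaker and 95 TP10M at mature green (4.39). It had 197 TP10M at 5 days after pollination and 204 TP10M at 7 days after breaker, so breaker was the high point of the series.

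The ACC oxidases and the 1 ethylene receptor that both libraries listed were higher at breaker. ACC oxidase, the enzyme that releases ethylene, was listed in both libraries from 2 neighbouring genes. Solyc07g049550 had 9934 TP10M at breaker and 474 TP10M at mature green (4.89). Solyc07g049530 had 16973 TP10M at breaker and 1374 TP10M at mature green (4.12). Their values at a listed site were identical, so the tags of these copies may be shared. A further ACC oxidase (Solyc04g007980) and an ACC synthase (Solyc01g095080), the step that makes ACC, were listed in the breaker library but not in the mature green one, at 1169 and 2967 TP10M. The ethylene receptor Solyc09g075440 had 3143 TP10M at breaker and 928 TP10M at mature green (2.26), and its total was larger still, 5033 TP10M, at 7 days after breaker. The EIN3-class factors, which carry the signal into the nucleus, were not called: Solyc01g009170 had 415 TP10M at breaker and 1087 TP10M at mature green (-0.89), and Solyc06g073720 had 318 and 561 TP10M at those stages (-0.32).

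The ethylene response factors split. Of 9 ERF genes, 4 were higher and 4 lower, and the 4 higher ones were those with the larger totals in both libraries. Such a difference with level was also seen over all members, with 13.0% higher under 100 TP10M and 31.4% higher at 3000 TP10M or more. Solyc09g075420 had 3018 TP10M at breaker and 859 TP10M at mature green (2.31). Solyc06g063070 had 6249 and 2724 TP10M at those stages (1.70), Solyc03g123500 had 16043 and 7013 TP10M (1.69), and Solyc01g065980 had 6375 and 3146 TP10M (1.52). Solyc03g123500 had its largest total, 35281 TP10M, at 5 days after pollination, so its breaker value was not the peak of the series. The lower ERF genes had totals under 700 TP10M: Solyc04g051360 had 8 TP10M at breaker and 65 TP10M at mature green (-2.38), Solyc03g093540 had 79 and 368 TP10M (-1.71), Solyc10g006130 had 109 and 474 TP10M (-1.61) and Solyc03g093560 had 189 and 624 TP10M (-1.22). The ninth, Solyc08g078190, was not called, at 78 TP10M at breaker and 192 TP10M at mature green (-0.79). Over the whole list of ethylene and ripening regulators, 9 of 23 members were higher and 6 lower, with a median of -0.32. As deposited the counts were 8 higher and 9 lower. The list took in 6 AP2-like genes through the word ethylene in their descriptions, 2 of them higher and 2 lower after centring. They are counted again among the microRNA target classes below.

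Among the regulators of ripening, an AP2-like factor and an SBP-box factor stood out. The AP2-like gene Solyc03g044300, from a family that microRNA miR172 cuts in plants, had 5359 TP10M at breaker and 364 TP10M at mature green (4.38). Its total was 267 TP10M at 5 days after pollination and 1582 TP10M at 7 days after breaker, so breaker was the high point. The squamosa promoter binding-like gene Solyc02g077920, from the SBP family that miR156 cuts, had 2549 TP10M at breaker and 829 TP10M at mature green (2.12). It had 38 TP10M at 5 days after pollination and 1698 TP10M at 7 days after breaker. None of the 3 MADS-box factors, a family that includes known ripening regulators, was called: AGAMOUS (Solyc02g071730) had 697 TP10M at breaker and 633 TP10M at mature green (0.64), Solyc02g089200 had 562 and 929 TP10M (-0.23), and MADS box 11 (Solyc03g114840) had 277 and 674 TP10M (-0.78).

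**Figure D3:**
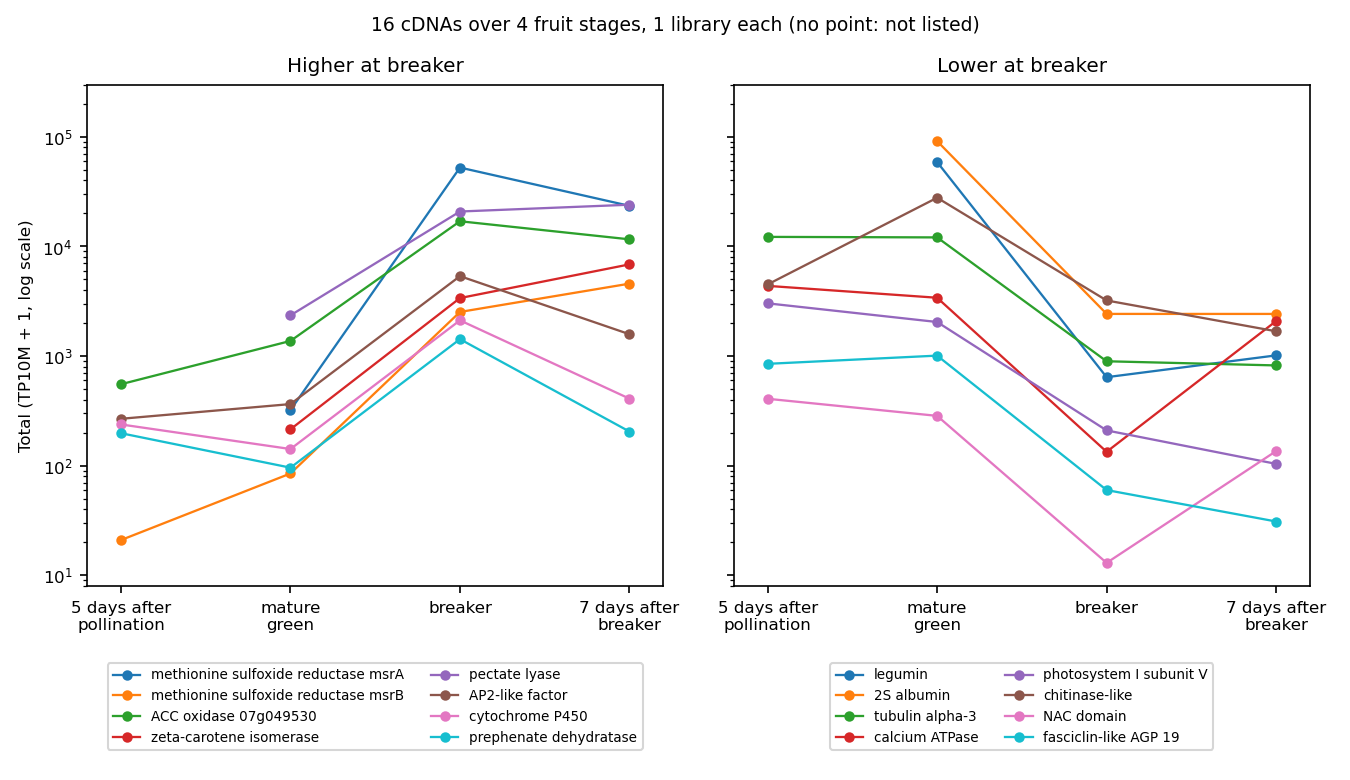
Totals (TP10M + 1, log scale) of 8 members higher and 8 lower at breaker, at 5 days after pollination, mature green, breaker and 7 days after breaker, with 1 library per stage and no point where a cDNA was not listed. The AP2-like factor, cytochrome P450 and prephenate dehydratase are highest at breaker, while msrB and zeta-carotene isomerase are higher still at 7 days after breaker. Legumin, 2S albumin and the tubulin stay low after breaker, while the calcium ATPase returns to 2086 TP10M.

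The carotenoid list held 3 members, of which 1 was higher and none lower, with a median of 0.47 after centring and -0.03 as deposited. 15-cis-zeta-carotene isomerase (Solyc12g098710), a step on the way to lycopene, had 3382 TP10M at breaker and 214 TP10M at mature green (4.47), and 6862 TP10M at 7 days after breaker. Phytoene desaturase (Solyc03g123760), the step before it, was not called with 444 TP10M at breaker and 453 TP10M at mature green (0.47). Isopentenyl-diphosphate delta-isomerase (Solyc04g056390), which supplies the isoprenoid units, was not called either with 892 TP10M at breaker and 1091 TP10M at mature green (0.21). A carotenoid isomerase (Solyc10g081650) was listed in the breaker library but not in the mature green one, at 1142 TP10M. The plastid terminal oxidase (Solyc11g011990), which takes the electrons from carotenoid desaturation, had 381 TP10M at breaker and 180 TP10M at mature green (1.58), and 1200 TP10M at 7 days after breaker.

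In the photosynthesis and chloroplast list, 9 of 19 members were lower and 3 higher, with a median of -0.96. As deposited, 13 were lower and 3 higher. Leaving out the Q(B) protein, whose known gene lies in the plastid genome, 8 of the 10 photosystem and chlorophyll-binding proteins were lower and none was above 0, a family set apart after its values had been seen. Photosystem I subunit V (Solyc07g066150) had 209 TP10M at breaker and 2045 TP10M at mature green (-2.79). The chlorophyll a/b binding protein Solyc02g071010, which harvests light, had 150 TP10M at breaker and 962 TP10M at mature green (-2.17), against 4912 TP10M at 5 days after pollination. Oxygen-evolving enhancer protein 2 (Solyc07g044860) had 1202 TP10M at breaker and 4435 TP10M at mature green (-1.38). The neighbouring photosystem I subunit III genes Solyc02g069450 and Solyc02g069460 were both lower (-1.36 and -1.57) and shared identical values at a listed site. Carbonic anhydrase (Solyc06g075070), which supplies carbon dioxide in green tissue, was outside the list and had 30 TP10M at breaker and 977 TP10M at mature green (-4.48). The higher members of the list were the plastid terminal oxidase, ferredoxin-6 (Solyc05g055280) with 370 TP10M at breaker and 144 TP10M at mature green (1.85), and a low-level copy of the photosystem Q(B) protein (Solyc11g056500) with 112 and 36 TP10M at those stages (2.11).

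Cell wall genes differed in both directions. Pectate lyase (Solyc03g111690), which cuts pectin, had 20831 TP10M at breaker and 2352 TP10M at mature green (3.65), and 24025 TP10M at 7 days after breaker. A beta-glucanase (Solyc01g060020) had 723 TP10M at breaker and 100 TP10M at mature green (3.34), and its neighbour Solyc01g059980 had 864 and 408 TP10M (1.58). The beta-galactosidase Solyc12g008840, which removes galactose from pectin side chains, had 1837 TP10M at breaker and 304 TP10M at mature green (3.09), with 669 TP10M at 5 days after pollination and 710 TP10M at 7 days after breaker. A pectin acetylesterase-like protein (Solyc08g075020) had 480 TP10M at breaker and 97 TP10M at mature green (2.79), and a hydroxyproline-rich glycoprotein (Solyc02g091700) had 4648 and 686 TP10M (3.26). Lower members were the fasciclin-like arabinogalactan protein 19 (Solyc07g045440), with 59 TP10M at breaker and 1009 TP10M at mature green (-3.57), a cellulose synthase-like protein (Solyc03g097050), with 50 and 624 TP10M (-3.12), and the endo-beta-mannosidase Solyc07g053920, with 18 and 74 TP10M (-1.48). In all, 6 of 18 members were higher and 3 lower, and the median was 0.26 after centring but -0.24 as deposited. A second endo-beta-mannosidase (Solyc01g008710) was listed at 2150 TP10M in the breaker library and not in the mature green one.

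Among sugar and central metabolism genes, 9 of 37 members were higher (24.3%) and 5 lower (13.5%), against 16.3% and 14.3% over all members. As deposited, 5 were higher and 10 lower, and the median was 0.32 after centring but -0.18 as deposited. Phosphoenolpyruvate carboxykinase (Solyc04g076880), which turns organic acids back toward sugar, had 5109 TP10M at breaker and 1116 TP10M at mature green (2.69). An isocitrate dehydrogenase (Solyc01g005560) of the acid cycle had 3441 and 1030 TP10M at those stages (2.24). Pyruvate decarboxylase (Solyc10g076510), which leads to ethanol and acetaldehyde, had 4526 and 1536 TP10M (2.06). The glucose-6-phosphate/phosphate translocator (Solyc07g064270), which carries hexose phosphate into plastids, had 2477 and 872 TP10M (2.0). Fructose-1,6-bisphosphatase class 1 (Solyc04g071340), an enzyme of sugar synthesis, was lower with 106 TP10M at breaker and 738 TP10M at mature green (-2.29). Enolase (Solyc09g009020), a step of glycolysis, was not called with 9000 TP10M at breaker and 7338 TP10M at mature green (0.79).

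Cytochrome P450 genes and other oxidoreductases were among the largest differences. Of 11 P450 members, 5 were higher and 3 lower. Solyc11g069800 had 2118 TP10M at breaker and 141 TP10M at mature green (4.40), and 408 TP10M at 7 days after breaker. Solyc09g066150 had 10860 TP10M at breaker and 955 TP10M at mature green (4.01), and 14398 TP10M at 7 days after breaker. Solyc08g079350 went the other way, with 11 TP10M at breaker and 337 TP10M at mature green (-4.32). A short-chain dehydrogenase/reductase (Solyc07g047800) had 14463 TP10M at breaker and 1198 TP10M at mature green (4.09). In the lipid list 5 of 22 members were higher (22.7%) and 3 lower (13.6%), against 16.3% and 14.3% over all members. As deposited 3 of the 22 were higher and 6 lower. The members higher after centring included both wax ester synthases of the WSD1 type, Solyc01g095930 with 1347 TP10M at breaker and 447 TP10M at mature green (2.09) and its neighbour Solyc01g095940 with 971 and 339 TP10M (2.01). The alpha subunit of the fatty acid oxidation complex (Solyc12g099440) was also higher, with 10500 and 3660 TP10M (2.02). Sterol reductase (Solyc06g074090) was the lowest, with 61 TP10M at breaker and 315 TP10M at mature green (-1.85).

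Genes of protein breakdown were more often higher than lower after centring. In the ubiquitin and proteasome list, 12 of 42 members were higher (28.6%) and 2 lower (4.76%), with a median of 0.29, but as deposited the median was -0.20 and the counts were 4 higher and 5 lower. Ubiquitin genes themselves, which encode the tag that marks proteins for the proteasome, were higher in 5 of 6, and in 3 of 6 when ratios were centred within level classes. Solyc07g064130 had 28044 TP10M at breaker and 10374 TP10M at mature green (1.93), Solyc12g098940 had 3776 and 1349 TP10M (1.98) and Solyc10g006480 had 9768 and 5299 TP10M (1.38). These genes repeat 1 coding unit, so tags may be shared among them. A proteasome alpha subunit (Solyc04g080590) had 1811 TP10M at breaker and 961 TP10M at mature green (1.41). Skp1 (Solyc01g111640), a part of ubiquitin ligases, was the lowest of the list, with 61 TP10M at breaker and 250 TP10M at mature green (-1.52).

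Among proteases and inhibitors, 9 of 43 members were higher (20.9%) and 4 lower (9.30%), against 16.3% and 14.3% over all members. The median was 0.05. As deposited, 4 were higher and 11 lower, with a median of -0.45. The cathepsin B-like proteinase Solyc02g077040 had 1196 TP10M at breaker and 170 TP10M at mature green (3.31). Vacuolar processing enzyme-1b (Solyc08g065610), a protease that matures vacuolar proteins, had 14804 TP10M at breaker and 5662 TP10M at mature green (1.89). Its totals were larger at each later stage, with 700 TP10M at 5 days after pollination and 33970 TP10M at 7 days after breaker. A serine carboxypeptidase (Solyc04g077650) had 2676 TP10M at breaker and 743 TP10M at mature green (2.35). The nucellin-like aspartic protease Solyc06g069190 was the lowest, with 153 TP10M at breaker and 865 TP10M at mature green (-1.99).

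Genes of protein synthesis and folding differed little between the libraries. Of 52 ribosomal proteins, 46 lay between the limits, 5 were higher and 1 was lower, and the median was 0.15. As deposited, 1 was higher and 9 lower, with a median of -0.35. The range ran from -1.98, for 60S protein L12 (Solyc04g050370) with 33 TP10M at breaker and 188 TP10M at mature green, to 1.62, for the S10-like 40S protein Solyc12g096540 with 1450 and 667 TP10M at those stages. Of 29 translation factors, 24 lay between the limits, and elongation factor 1-alpha (Solyc06g005060) had 11948 TP10M at breaker and 10315 TP10M at mature green (0.71). Of the translation factors 3 were higher and 2 lower (median 0.39), while as deposited none was higher and 2 were lower (median -0.11). Of 49 chaperones, 9 were higher and 1 lower (median 0.31), while as deposited 3 were higher and 7 lower (median -0.19). A heat shock protein (Solyc11g066100) had 3120 TP10M at breaker and 971 TP10M at mature green (2.18), and 7188 TP10M at 7 days after breaker. Protein disulfide isomerase (Solyc01g100320), which folds secreted proteins, had 7169 TP10M at breaker and 2856 TP10M at mature green (1.83). HSP90 (Solyc07g065840) was not called, with 6626 TP10M at breaker and 14482 TP10M at mature green (-0.63).

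Seed genes gave the lowest ratios. Of the 9 members in the seed storage, oil body and late embryogenesis list, 6 were lower and none higher, with a median of -1.82. Legumin (Solyc09g072560), a globulin stored in seeds, had 641 TP10M at breaker and 58849 TP10M at mature green (-6.02). The 2S albumin Solyc08g080490, a second class of seed storage protein, had 2424 TP10M at breaker and 91336 TP10M at mature green (-4.74). Neither was listed at 5 days after pollination, and both stayed low at 7 days after breaker, with 1014 and 2423 TP10M. An oleosin (Solyc12g010920), which coats oil bodies, had 437 TP10M at breaker and 4489 TP10M at mature green (-2.86), while a second oleosin (Solyc06g060840) had 1064 and 1399 TP10M (0.10). The group 3 late embryogenesis abundant protein Solyc09g008770 was likewise not called, with 697 TP10M at breaker and 912 TP10M at mature green (0.11).

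As a check of the tissue, 19 seed marker cDNAs were listed in any library, 8 of them at breaker, 14 at mature green and 7 in both. Over these 7, the summed total was 6936 TP10M at breaker and 163968 TP10M at mature green, and none was at 0 in either library. The fruits were whole, so seeds were part of the sample, and the part of seed RNA in other differences was not tested. With the seed list left out of both the members and the centring, 224 of 1368 were higher and 192 lower. Among these 1368, 191 lower calls were kept and 0 calls were lost. The genes left out included the 6 seed genes called lower. Of 20 green tissue markers, 10 were listed in both libraries, and their summed total was 3914 TP10M at breaker and 14273 TP10M at mature green.

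All 7 tubulin members were lower, from -1.36 to -3.25, and their summed total was 6576 TP10M at breaker and 43961 TP10M at mature green. Tubulin alpha-3 (Solyc04g077020), a building block of microtubules, had 896 TP10M at breaker and 12092 TP10M at mature green (-3.25). A second alpha-3 gene (Solyc08g006890) had 2902 TP10M at breaker and 17962 TP10M at mature green (-2.13). Both were high in the 2 earlier libraries and low in the 2 later ones: the first had 12224 TP10M at 5 days after pollination and 821 TP10M at 7 days after breaker, and the second had 25330 and 1989 TP10M. The beta tubulin Solyc06g076640 shared identical site values with its neighbour, a peroxidase (Solyc06g076630, -1.76), so tags of that pair may be shared. In the full list of cytoskeleton, histone and cell cycle genes, 12 of 32 members, the tubulins included, were lower and 2 higher, with a median of -0.45. The histone deacetylase-like protein Solyc11g066840, which acts on chromatin, had 260 TP10M at breaker and 1622 TP10M at mature green (-2.14). The highest of the list, matched by the words cell division, was an ftsH protease (Solyc10g086550) with 398 TP10M at breaker and 214 TP10M at mature green (1.39).

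**Figure D4:**
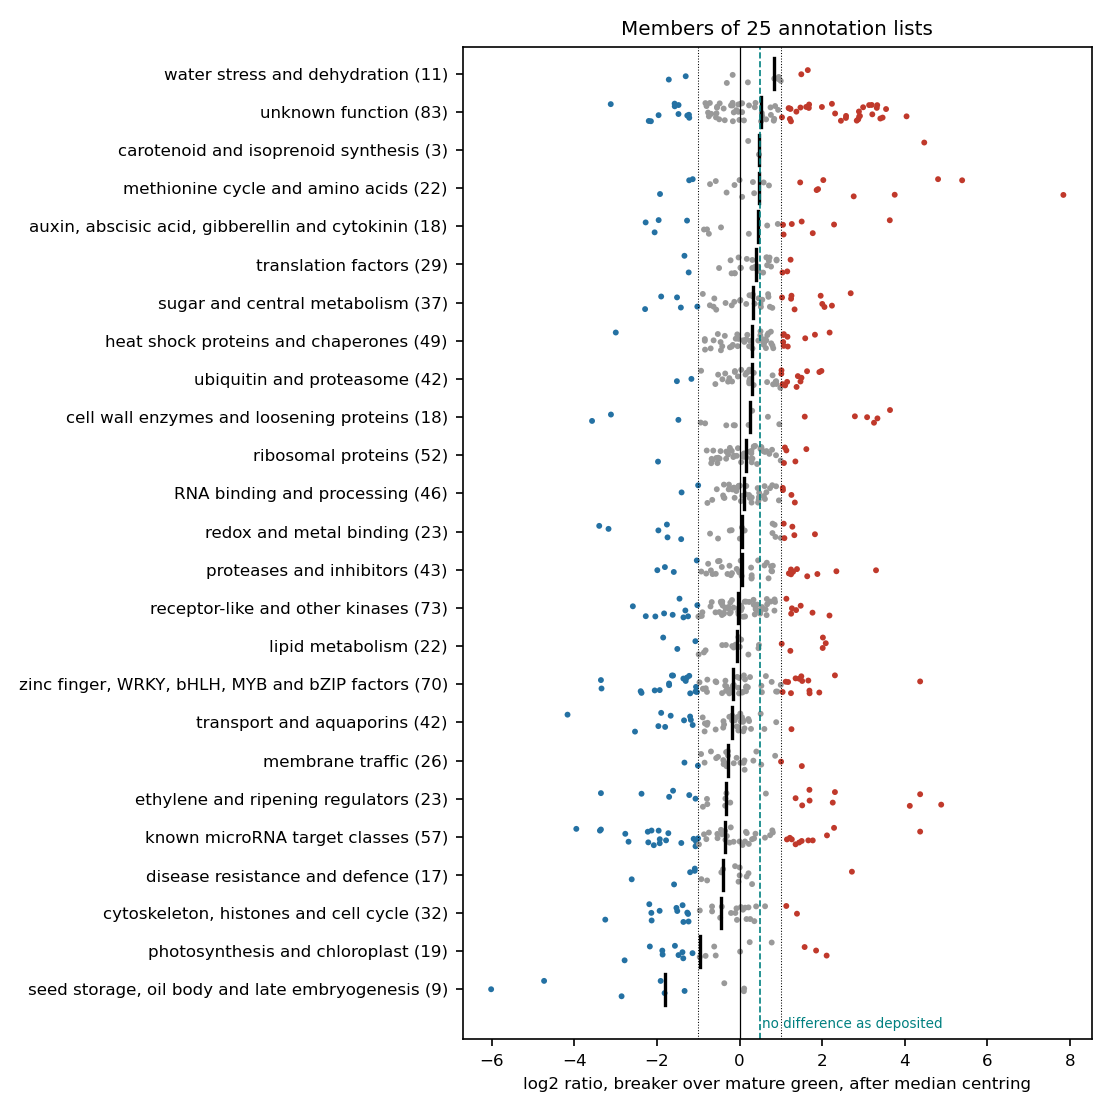
Centred log2 ratios of breaker over mature green for the members of 25 annotation lists (number of members in brackets), ordered by median (black bars), with members 2-fold or more higher in red and lower in blue. The dashed line marks equal totals as deposited. Seed genes (median -1.82) and photosynthesis genes (-0.96) lie lowest, and unknown proteins (0.52) and water stress genes (0.84) highest.

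Transport genes were lower more often than higher, with 10 of 42 members lower and 1 higher (median -0.18). Calcium-transporting ATPase 1 (Solyc02g064680), which pumps calcium out of the cytosol, had 133 TP10M at breaker and 3404 TP10M at mature green (-4.17). Its total was 4369 TP10M at 5 days after pollination and 2086 TP10M at 7 days after breaker, so the breaker library alone was low. The only member called higher was a sucrose transporter (Solyc11g017010), with 669 TP10M at breaker and 395 TP10M at mature green (1.26). In the defence list 5 of 17 members were lower and 1 higher (median -0.40). A chitinase-like protein (Solyc09g098540) had 3216 TP10M at breaker and 27817 TP10M at mature green (-2.61), and a major latex-like protein (Solyc00g060810) had 1465 and 313 TP10M (2.72) and 7996 TP10M at 7 days after breaker. Outside the list, all 4 N-acetyltransferases, from -2.27 to -3.20, were lower. They are neighbours by their identifiers (Solyc08g068690, Solyc08g068700, Solyc08g068710 and Solyc08g068770) and shared site values in pairs, so they are not independent cases.

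Of 23 redox genes, 5 were higher and 6 lower, with a median of 0.06. As deposited, 1 was higher and 8 lower, with a median of -0.44. Superoxide dismutase (Solyc01g067740), which removes superoxide, had 11935 TP10M at breaker and 6948 TP10M at mature green (1.28). A peroxidase (Solyc02g080530) had 100 TP10M at breaker and 1506 TP10M at mature green (-3.40), and thioredoxin 2 (Solyc03g115870) had 33 and 433 TP10M (-3.17). Several genes with large totals in both libraries were not called. The water-stress inducible protein Solyc04g071610 had 76598 TP10M at breaker and 56037 TP10M at mature green (0.95), against 227 TP10M at 5 days after pollination. Translationally controlled tumor protein (Solyc01g099770) had 41069 TP10M at breaker and 34746 TP10M at mature green (0.74), and agglutinin (Solyc03g116230), a lectin, had 15662 and 22097 TP10M (0.00). Type 2 metallothionein (Solyc09g010800), a metal-binding protein, lay at the limit and just under it, with 37324 TP10M at breaker and 26380 TP10M at mature green (0.9997). In the water stress list 2 of 11 members were higher and 2 lower, and the highest was a dehydrin (Solyc04g082200) with 10273 TP10M at breaker and 4615 TP10M at mature green (1.65).

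Hormone genes other than those of ethylene showed 7 of 18 members higher and 4 lower, with a median of 0.45. As deposited, 4 were higher and 7 lower, with a median of -0.05. A gibberellin receptor of the GID1L2 type (Solyc01g108580) had 1084 TP10M at breaker and 122 TP10M at mature green (3.64). The lower ones included the auxin responsive gene Solyc01g097290, with 18 TP10M at breaker and 129 TP10M at mature green (-2.28), against 1266 TP10M at 5 days after pollination. They also included the SAUR gene Solyc01g110560, with 25 and 152 TP10M (-2.06). The auxin response factors in the list, 9 in all, had 4 higher and 1 lower. Auxin response factor 2 (Solyc03g118290) was higher, with 5008 TP10M at breaker and 2493 TP10M at mature green (1.51). Receptor-like and other kinases had 7 of 73 members higher (9.59%) and 10 lower (13.7%), against 16.3% and 14.3% over all members. Their median was -0.03, and as deposited 2 were higher and 17 lower. RNA binding and processing genes had 4 of 46 higher and 2 lower (median 0.11), while as deposited none was higher and 5 were lower (median -0.39). Membrane traffic genes had 2 of 26 in each direction (median -0.28), and as deposited 1 higher and 7 lower. In the broad list of transcription factors 14 of 70 members were higher and 18 lower (median -0.15), and as deposited 7 were higher and 26 lower. Among its MYB factors, Solyc06g069850 was the lowest with 13 TP10M at breaker and 200 TP10M at mature green (-3.34).

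The classes that plant microRNAs are known to cut held 57 members, of which 19 (33.3%) were lower and 11 (19.3%) higher, with a median of -0.34. As deposited, 25 were lower and 6 higher. Over all 154 members with a geometric mean total under 100 TP10M, 37.7% were lower. Many of the 19 lower members here were in that class, so their share cannot be read apart from level. Members were matched by family words, so a member need not be a microRNA target itself. NAC factors, a family with members cut by miR164, had 4 of 6 lower and none higher. Solyc06g069710 had 12 TP10M at breaker and 284 TP10M at mature green (-3.96), and 135 TP10M at 7 days after breaker. Solyc01g104900, also lower (-2.77), had 0 TP10M at listed sites in both libraries, the value given to a site with a single read. All 6 class III homeodomain-leucine zipper genes, cut by miR166, lay below 0 and 3 were called lower. Of those 3, Solyc12g044410 had 123 TP10M at sites at breaker and 144 TP10M at mature green, and Solyc03g120910 had 126 and 150 TP10M. Their site tags were not lower after centring (0.27 and 0.25), but the rest was (-1.98 and -1.52). They shared identical values at a listed site, so tags may be shared. The other, Solyc03g031760, had 0 and 4 TP10M at sites. Growth-regulating factors, cut by miR396, had 3 of 5 members lower and 1 higher. In the SBP family 2 of 6 were lower, the lowest being Solyc10g078700 with 7 TP10M at breaker and 117 TP10M at mature green (-3.38), against 1 higher, Solyc02g077920. The AP2-like family had 2 of 6 in each direction, from Solyc06g075510 with 5 TP10M at breaker and 86 TP10M at mature green (-3.36) to Solyc03g044300 (4.38). Auxin response factors had 4 of 9 higher and 1 lower, GRAS factors 2 of 4 in each direction, F-box genes 1 of 9 in each direction and NF-YA subunits 1 of 4 lower. The lower GRAS gene Solyc06g035620 (-1.71) was counted in its family but was not among the 57 members. The tables describe 3 genes as ARGONAUTE 1, a protein that carries microRNAs and whose own mRNA miR168 cuts. Solyc02g069280 was called lower, just past the limit (-1.01), with only 24 TP10M at breaker and 70 TP10M at mature green. Its listed sites had 0 TP10M in both libraries, the value given to a single read. Solyc02g069260 lay just short of the limit at -0.98, with 807 and 2258 TP10M at those stages, and Solyc06g072300 lay at -0.14. Whether each of the 3 is a target of miR168 was not tested.

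For a few of these genes the total was mostly made of tags at the listed small RNA sites. Over all members such sites were a small part: the median share was 0.0% at breaker and 0.32% at mature green, and 13 members at breaker and 8 at mature green had at least 50% of their tags there. A site with a single read is listed at 0 TP10M, so a share of 0.0% does not mean that no tag fell there. A pair of GRAS factors, from a family cut by miR171, were called higher through their sites. Solyc08g078800 had 437 of 520 TP10M at its sites at breaker (84.0%) and 100 of 231 TP10M at mature green (43.3%), which left 83 TP10M elsewhere at breaker and 131 TP10M at mature green. Solyc01g090950 had 340 of 417 TP10M at breaker (81.5%) and 89 of 216 TP10M at mature green (41.2%), leaving 77 and 127 TP10M. Auxin response factor 16 (Solyc06g075150), of the group cut by miR160, had 249 of 282 TP10M at its sites at breaker (88.3%) and 55 of 116 TP10M at mature green (47.4%), leaving 33 and 61 TP10M. For these 3 genes the site tags were higher at breaker and the tags elsewhere on the cDNA were not.

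The AP2-like gene Solyc03g044300 differed from those 3 genes. It had 3401 of 5359 TP10M at sites at breaker (63.5%) and 166 of 364 TP10M at mature green (45.6%), and the rest of the cDNA was also higher, with 1958 TP10M at breaker and 198 TP10M at mature green (centred log2 ratio of the rest 3.80). The SBP-box gene Solyc02g077920 had 17.7% of its tags at sites at breaker and 14.4% at mature green, and its rest had 2098 and 710 TP10M (2.06). The reverse arrangement was seen in another AP2-like gene, Solyc11g072600, with 2 of 34 TP10M at sites at breaker and 45 of 62 TP10M at mature green, while its rest had 32 and 17 TP10M (1.37). The homeodomain-leucine zipper gene Solyc08g066500 had 123 of 129 TP10M at sites at breaker (95.3%) and 144 of 320 TP10M at mature green (45.0%). Its site values equalled those of Solyc12g044410 in both libraries, 123 and 144 TP10M, so the same tags may have been given to both copies. A DNA methyltransferase (Solyc02g062740), outside the known classes, had 57.4% of its tags at listed sites at breaker and 6.37% at mature green, with totals of 258 and 267 TP10M (0.45).

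**Figure D5:**
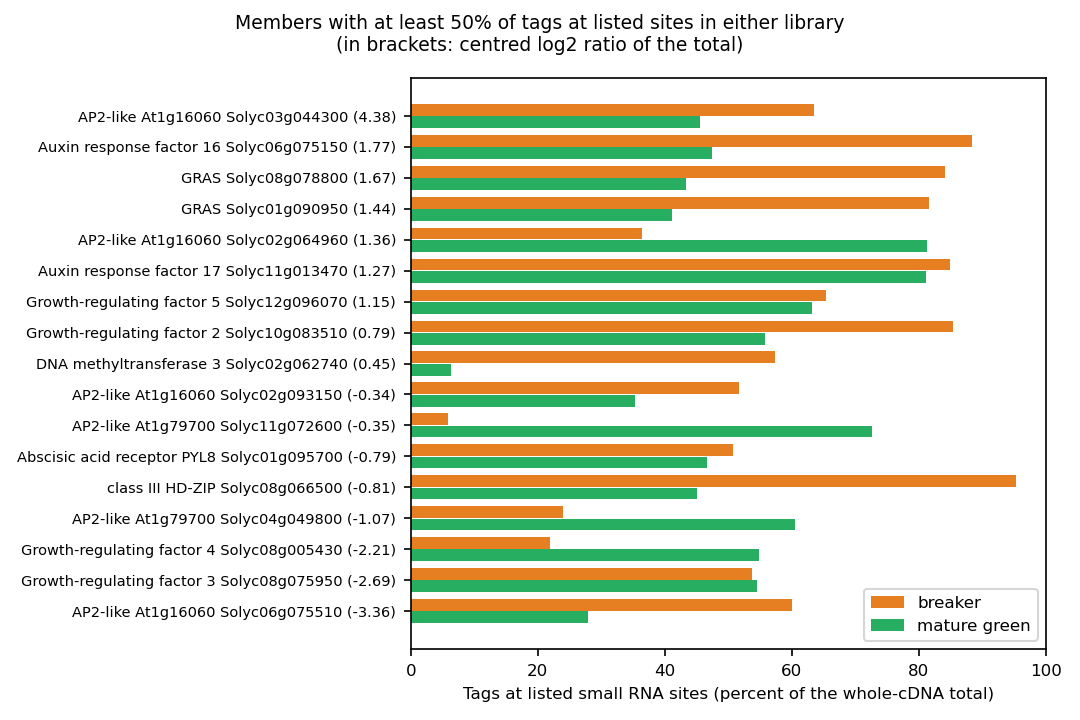
Percent of the whole-cDNA total that lay at listed small RNA sites at breaker (orange, upper bar) and mature green (green, lower bar), for the members with at least 50% in either library, ordered by the centred log2 ratio of the total (in brackets). Auxin response factor 16 and both GRAS genes have over 80% at breaker and under 50% at mature green.

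Proteins of unknown function were higher more often than the members as a whole: 32 of 83 (38.6%) were higher and 11 (13.3%) lower, with a median of 0.52. As deposited, 24 were higher and 21 lower. Many of these had a high value at breaker alone. Of the 63 unknown proteins listed at all 4 stages, 15 (23.8%) had a breaker total at least 2-fold over each other stage as deposited, against 32 of the 1016 members listed at all 4 stages (3.15%), a pattern looked for after the values had been seen. Solyc12g062300 had 299, 216, 1696 and 234 TP10M at 5 days after pollination, mature green, breaker and 7 days after breaker. Solyc03g053030 had 410, 261, 1722 and 259 TP10M at those stages, and Solyc00g006050 had 180, 132, 1000 and 152 TP10M. Most of the 15 shared identical site values with another unknown protein, including Solyc12g062300 with Solyc00g006050 and Solyc03g053030 with Solyc01g020410. Tags of such copies may have been counted for more than 1 of them, so the 15 are not independent cases. The deposited tables give no function for them.

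Among the cDNAs left out because 1 library did not list them, 1604 had at least 50 TP10M at mature green alone and 307 at breaker alone. Those listed at breaker alone included nucleoside diphosphate kinase (Solyc01g089970, 7114 TP10M), which balances nucleotide pools, and ketol-acid reductoisomerase (Solyc07g053280, 5368 TP10M), a step of branched-chain amino acid synthesis. Those listed at mature green alone included a second legumin (Solyc09g090150, 41723 TP10M), a BURP domain protein (Solyc05g005560, 20310 TP10M) and 4 xyloglucan endotransglucosylase/hydrolase 9 copies with 3856 to 4129 TP10M. A dash in the tables does not mean that the cDNA had no tags, only that no tag was listed at a predicted site, so no ratio was formed for these cDNAs.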

How the data were processed

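The authors deposited 3 tables of predicted small RNA targets with the tags found there. Per the file headers, the authors normalized these tag totals to tags per 10000000 (TP10M), a score rounded to whole numbers. The values are not raw counts, so no count test was run. Per the labels' protocols, polyadenylated RNA was selected with oligo-dT, tags were cut with MmeI and sequenced on an Illumina HiSeq. Per the file headers, tags were matched to ITAG2.3 cDNAs and classed by CleaveLand categories. Per the submitters' processing notes, CASAVA 1.8.0 was used. Library totals, and so depths, are not given in these sources. Every category 4 peak, the single-read class of CleaveLand, is listed at 0 TP10M and no other peak is. No counting interval could be computed, and small totals are the least precise.

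All 3 tables were pooled and each cDNA was given 1 total per library, which did not differ between its rows. The 7 days after breaker library is called red ripe in the headers. Ratios are log2((breaker + 1)/(mature green + 1)), centred on the members' median, and a member was called at 2-fold. With 1 library per stage there is no test. The members and the lists were chosen with earlier results of these data known. List words were adapted after the tables had been seen, false matches were trimmed and adenosylhomocysteinase was added. Some members match by word only, such as a vesicular glutamate transporter in the methionine and amino acid list. A gene can stand in several lists, as AP2-like genes and auxin response factors do, so the lists are not independent. Genes were named by rule: the 12 highest and 12 lowest ratios, the 10 with most tags, the highest, lowest and most tagged of each list, and every member of the ethylene, carotenoid and microRNA target lists, 149 in all. Other genes named were chosen after their values had been seen. The alternatives tried concern centring, pseudocount, minimum, dashes, site tags, the seed list and level. No sequences are shown. The calculation was tested on simulated data and run in Python 3.11.15 with pandas 2.3.3, numpy 2.4.6 and matplotlib 3.10.9.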

Additional observations from a re-analysis of the deposited data

How the results depend on the processing

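The split of calls rested mainly on the centring and on how a dash was read. Without centring, 121 members were higher and 389 lower, against 224 and 197 after centring; all 121 and 197 kept their calls, no member took the opposite call and 103 calls were lost. With a dash read as 0 and the centring kept, 531 of 3288 cDNAs were higher and 1801 lower. With the median retaken over all 3288, at -2.77, 1534 were higher and 1618 lower, 47 members took the opposite call, 136 calls were lost and 14 of the 197 lower calls were kept. Other medians, pseudocounts and minimums gave 207 to 236 members higher and 181 to 212 lower. Alternatives added after seeing the data gave 224 higher and 195 lower without the tags at listed sites, 224 and 192 without the seed list, and 202 and 199 with centring within each level class, where 72 calls were lost. Among the named genes called at 2-fold, the ratio changed sign without the tags at listed sites for the GRAS genes Solyc01g090950 (-0.21, against 1.44) and Solyc08g078800 (-0.15, against 1.67) and for auxin response factor 16, Solyc06g075150 (-0.36, against 1.77). Some genes not called changed sign too. With the main median kept, these included growth-regulating factor 2, Solyc10g083510 (-0.72, against 0.79), and the AP2-like gene Solyc11g072600 (1.37, against -0.35). Besides the counts over all members and the 3 sign changes of called genes, 3744 recomputed values stayed within 1.5-fold of the main value and 256 moved. Part of the 3744 was fixed in advance. Dropping the centring shifted every ratio by the same 0.50, too little to pass that limit. Reading a dash as 0 with the centring kept left members' ratios as they were. Centring within level classes moved 59 of the 149 named genes. No paired analysis was possible because each stage had 1 library. Depth is unknown and there is no replicate, so the error of a single total or ratio could not be measured.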
